A study of Mus musculus with 8 samples.

Results

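Primary granules, also called azurophil granules, are the first secretory granules that a developing neutrophil makes, and the promyelocyte is the stage at which their proteins are produced. They hold myeloperoxidase, which makes hypochlorous acid from hydrogen peroxide, and the serine proteases neutrophil elastase, proteinase 3 and cathepsin G. These proteases are activated by cathepsin C, packed on the proteoglycan serglycin and held in check by inhibitors outside and inside the granule. Their genes are known to be transcribed already in myeloid progenitors, under PU.1, C/EBP, MYB and RUNX factors.

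Expression of 8 genes of this programme was examined: Mpo, Elane, Prtn3, Ctsg, Ms4a3, Cst7, Fcnb and Serpinb1a. They were chosen by name, taking each probe set of the array whose annotation gave exactly 1 gene symbol and that symbol among the 8. This gave 9 probe sets of 34945 with a single symbol, or 8 of 18193 genes, with 2 probe sets for Serpinb1a and 1 for each of the others. The test covered the 8886 genes at a signal of 50 or more on 2 arrays or more. The 8 genes were among them, but Fcnb reached 50 on 3 arrays only, all from G4/G5 mice, so its selection already favours a difference between genotypes. As background, Serpinb1a encodes a cytosolic inhibitor and Ms4a3 a membrane protein, so the group is a promyelocyte programme rather than a list of granule contents alone.

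The 8 arrays measured RNA of cells sorted from bone marrow of male mice on a mainly C576BL/6 background, generated in-house. The cells were common myeloid progenitors (CMP), which give rise to all myeloid lineages, and granulocyte-macrophage progenitors (GMP), their more committed descendants. The normal group was G0 TERTER/+, and its mice therefore also carried 1 copy of the modified telomerase reverse transcriptase allele. The comparison group was G4/G5 TERTER/ER, described as mice with short telomeres and titled G4 in the sample names. Each genotype and cell type had 2 arrays, each from a pool of 4 mice of matched age and sex, with 5000 to 20000 cells and 5 to 10 ng of RNA. The sources used here give neither age nor the antibodies of the sort. The spread behind every p-value is that between pools, and in the fit of all arrays it is estimated for each gene over the 4 groups together. In such bulk samples, fewer cells of a type and less RNA per cell cannot be told apart.

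One CMP array stood apart from the others in Fcgr3 and in genes of maturing neutrophils, but not in every marker. Kit and Cd34, receptors that mark progenitors, were at 723 or more (Kit) and 880 or more (Cd34) on every array. Fcgr3, the Fc receptor by which GMP are sorted, was between 732 and 1457 on the 4 GMP arrays and at 38.7, 83.9 and 72.2 on 3 CMP arrays. On the fourth, G4/G5 CMP pool 1, it was 617. Other markers on that array did not follow Fcgr3. Gfi1 was 301 there, against 795 to 1174 on the GMP arrays. Csf3r, Csf1r and Irf8 lay within the range of the other CMP arrays. The megakaryocyte and erythroid markers Gata1, Klf1, Epor and Itga2b were higher there than on any other array (420, 384, 81.4 and 670). The summed signal of 19 genes of maturing neutrophils (the secondary and tertiary granule genes such as Ltf, Camp and Ngp, with S100a8 and S100a9) was 67653 on that array and between 489 and 548 on the other CMP arrays. On the GMP arrays it was 2715 and 4797 for G0 and 36662 and 39668 for G4/G5. Results in CMP are therefore given with and without pool 1 of G4/G5, and the neutrophil signal also moved with genotype in GMP. Of the 19 genes, Mmp8, Mmp9, Cd177, Olfm4, Itgb2l, Cxcr2 and G0s2 passed the signal filter through G4/G5 arrays alone. Their selection already favours a difference between genotypes.

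The promoters of the 3 serine protease genes and of Mpo are shown because these 4 carry the same PU.1-type motif. Promoter sequence of the RefSeq annotation, build GRCm38.p6, was matched by symbol for 7 of the 8 genes. The lines below give the 250 bases upstream of the annotated start, 5′ to 3′ on the gene's strand. Elane lies at chr10:79886062-79886311 on the plus strand, Prtn3 at chr10:79879417-79879666 on the plus strand, Ctsg at chr14:56102575-56102824 on the minus strand and Mpo at chr11:87793534-87793783 on the plus strand. Capitals mark GAGGAA, a PU.1-type motif, and AACNG, a MYB-type motif, on either strand, so that MYB matches on the other strand read CNGTT.

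Elane: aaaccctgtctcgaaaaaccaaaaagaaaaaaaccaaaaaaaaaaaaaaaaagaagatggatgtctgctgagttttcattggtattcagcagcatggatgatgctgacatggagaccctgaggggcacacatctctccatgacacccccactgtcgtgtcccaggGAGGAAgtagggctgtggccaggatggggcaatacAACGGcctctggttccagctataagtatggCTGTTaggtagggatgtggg

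Prtn3: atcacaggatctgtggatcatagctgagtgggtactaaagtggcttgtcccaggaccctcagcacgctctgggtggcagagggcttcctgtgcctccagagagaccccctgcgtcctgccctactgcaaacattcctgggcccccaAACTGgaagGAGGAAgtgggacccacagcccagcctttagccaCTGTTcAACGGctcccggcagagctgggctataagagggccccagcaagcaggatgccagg

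Ctsg: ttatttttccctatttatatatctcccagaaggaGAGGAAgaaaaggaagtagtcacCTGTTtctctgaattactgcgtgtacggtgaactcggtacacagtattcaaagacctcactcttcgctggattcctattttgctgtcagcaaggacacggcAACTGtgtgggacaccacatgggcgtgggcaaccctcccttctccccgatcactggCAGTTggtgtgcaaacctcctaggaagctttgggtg

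Mpo: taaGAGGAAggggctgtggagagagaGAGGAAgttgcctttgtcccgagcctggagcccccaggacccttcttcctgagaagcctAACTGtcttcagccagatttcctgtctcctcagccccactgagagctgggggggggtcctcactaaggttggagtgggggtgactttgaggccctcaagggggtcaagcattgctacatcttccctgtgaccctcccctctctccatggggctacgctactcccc

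GAGGAA was present in 4 of the 7 promoters, Elane, Prtn3, Ctsg and Mpo, and in 23.3% of 32851 mouse promoter windows of the same length. Counted back from the start, it began at base -85 in Elane, -95 in Prtn3, -216 in Ctsg, and -247 and -224 in Mpo. In Elane and Prtn3, which lie next to each other on chromosome 10, an AACGG match followed nearer the start, at -50 and -55. AACNG occurred in 6 of the 7 (not in Ms4a3) and in 74.2% of all windows. A C/EBP-type motif, TTGCNNAA, occurred in 1 of the 7, Fcnb, and in 9.56% of all windows, and a RUNX-type motif, TGNGGT, in Cst7 and Ctsg and in 40.1% of all windows. None of these 4 motifs was found in the window of Ms4a3. Both strands were searched, and 1 C/EBP match and 1 MYB match share a base in Fcnb. The matches describe letters in these windows and were not tested against binding.

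The first question was how the 8 genes stood in normal CMP and GMP. In G0 mice all 8 were higher in GMP than in CMP with no overlap of the pools, as were 32.2% of all tested genes. Of the 8, 6 rose past the threshold, against 10.6% of all tested genes that were called higher. Their median log2 difference was 1.72, beside -0.02 for all genes. All log2 differences are on the log2(signal + 10) scale, from 1 limma fit over all arrays, with its standard error (SE) and with p adjusted over 8886 genes. Of the 8, Elane and Ms4a3 had the largest steps, and Mpo and Fcnb did not pass. The 6 calls do not all rest on every array: between 2 and 7 of the 8 were called when 1 array was left out, the fewest without G0 GMP pool 1 (Elane and Cst7).

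Mpo encodes myeloperoxidase. Its signal was 2852 and 6814 in CMP of G0 mice and 8825 and 11199 in CMP of G4/G5 mice. In GMP it was 9505 and 8680 for G0 and 10015 and 10013 for G4/G5. The groups did not overlap between genotypes, and G0 CMP was the one group clearly below the rest, with its own pools far apart. The step from CMP to GMP in G0 was 1.04 (SE 0.33, adjusted p = 0.0561), which missed the threshold, and with the pool number as a block shared by both cell types its adjusted p was 0.0400. In G4/G5 the same step was 0.01 (SE 0.33, adjusted p = 0.987), with a 95% interval from -0.74 to 0.77 and overlapping pools. The values of the 2 G4/G5 CMP pools lay on either side of the G4/G5 GMP pools. Its signal reached up to 85.9% of the highest signal on its array, and whether such signals were near saturation was not tested.

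Elane encodes neutrophil elastase. It read 72.3 and 194 in CMP of G0 mice and 535 and 315 in CMP of G4/G5 mice. The GMP signals were 1182 and 1601 for G0 and 1662 and 1797 for G4/G5. The 4 groups lay in this order with no overlap between neighbours, and the 2 G0 CMP pools were the lowest. In G0 the signal rose 10.7-fold from CMP to GMP (log2 difference 3.42, SE 0.40, adjusted p = 0.00277). In G4/G5 it rose 4.13-fold (2.05, SE 0.40, adjusted p = 0.0196).

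Prtn3, which lies just upstream of Elane, encodes proteinase 3, a protease with a similar substrate range. Its signal was 1260 and 2297 in CMP of G0 mice and 5791 and 3765 in CMP of G4/G5 mice. GMP pools gave 6115 and 5806 for G0 and 6534 and 6875 for G4/G5. Pool 1 of G4/G5 CMP lay just below the lower G0 GMP pool, while pool 2 lay between G0 CMP and GMP. Prtn3 rose from CMP to GMP in G0 (1.80, SE 0.28, adjusted p = 0.00613). The step in G4/G5 was 0.52 (SE 0.28, adjusted p = 0.245).

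Ctsg encodes cathepsin G, a chymotrypsin-like protease. It read 1517 and 3268 in CMP of G0 mice and 6158 and 4855 in CMP of G4/G5 mice. In GMP it was 8221 and 8051 for G0 and 9562 and 9305 for G4/G5. The groups again lay in this order without overlap, and both GMP groups were tight. Ctsg reached up to 82.0% of the highest signal on its array, and whether such signals were near saturation was not tested. Ctsg rose from CMP to GMP in G0 (1.86, SE 0.30, adjusted p = 0.00682), and its step in G4/G5 was 0.79 (SE 0.30, adjusted p = 0.122).

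The inhibitors followed the same order of group means. Cst7 encodes cystatin F, an inhibitor of cysteine cathepsins, cathepsin C among them. It read 445 and 429 in CMP of G0 mice and 994 and 712 in CMP of G4/G5 mice. The GMP signals were 1373 and 1377 for G0 and 1717 and 1684 for G4/G5. Its pools within a group were close except in G4/G5 CMP. It rose in G0 (1.63, SE 0.16, adjusted p = 0.00187) and in G4/G5 (1.01, SE 0.16, adjusted p = 0.0104).

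Serpinb1a encodes a serpin that blocks elastase, proteinase 3 and cathepsin G in the cytosol. Its brighter probe set read 1201 and 1553 in CMP of G0 mice and 2533 and 1577 in CMP of G4/G5 mice. GMP pools gave 2205 and 2508 for G0 and 3104 and 2933 for G4/G5. Pool 2 of G4/G5 CMP was barely above the higher G0 CMP pool, and pool 1 was above both G0 GMP pools. The gene rose in G0 (0.78, SE 0.22, adjusted p = 0.0387), a call kept under 10 of 20 alternative settings and lost, for example, with quantile normalization (adjusted p = 0.0796). Its adjusted p ran from 0.00746 to 0.177 over them, and its step in G4/G5 was 0.59 (SE 0.22, adjusted p = 0.116). The dimmer probe set ordered the group means in the same way, from 273 in G0 CMP to 532 in G4/G5 GMP, but its CMP groups overlapped (209 and 336 against 421 and 279). Its G0 CMP pools also overlapped its G0 GMP pools (317 and 412). With every probe set tested on its own in limma, its G0 step was 0.43 and did not pass (adjusted p = 0.272).

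Ms4a3 encodes a membrane protein of the MS4A family found on granulocyte and monocyte precursors. It read 538 and 300 in CMP of G0 mice and 2623 and 445 in CMP of G4/G5 mice. In GMP it was 5502 and 5312 for G0 and 6555 and 5943 for G4/G5. It was the member with the widest gap between G4/G5 CMP pools, and its pool 2 lay between the G0 CMP pools. It rose 13.2-fold in G0 (3.72, SE 0.66, adjusted p = 0.00915) and 5.71-fold in G4/G5 (2.51, SE 0.66, adjusted p = 0.0467). The G4/G5 call was kept under 11 of 20 alternative settings, with adjusted p from 0.000383 to 0.258, and was lost, for example, without an intensity trend (adjusted p = 0.0671).

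Fcnb encodes ficolin B, a lectin that binds microbial sugars and can start the lectin pathway of complement. It read 15.5 and 15.6 in CMP of G0 mice and 105 and 26.8 in CMP of G4/G5 mice. The GMP signals were 19.7 and 27.3 for G0 and 59.8 and 86.5 for G4/G5. It was below the signal filter of 50 on all 4 G0 arrays and above it on 3 of the 4 G4/G5 arrays. Those 3 arrays are also the ones with the highest summed neutrophil signal. Its steps from CMP to GMP were 0.38 in G0 (SE 0.49, adjusted p = 0.605) and 0.34 in G4/G5 (SE 0.49, adjusted p = 0.678).

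**Figure D1:**
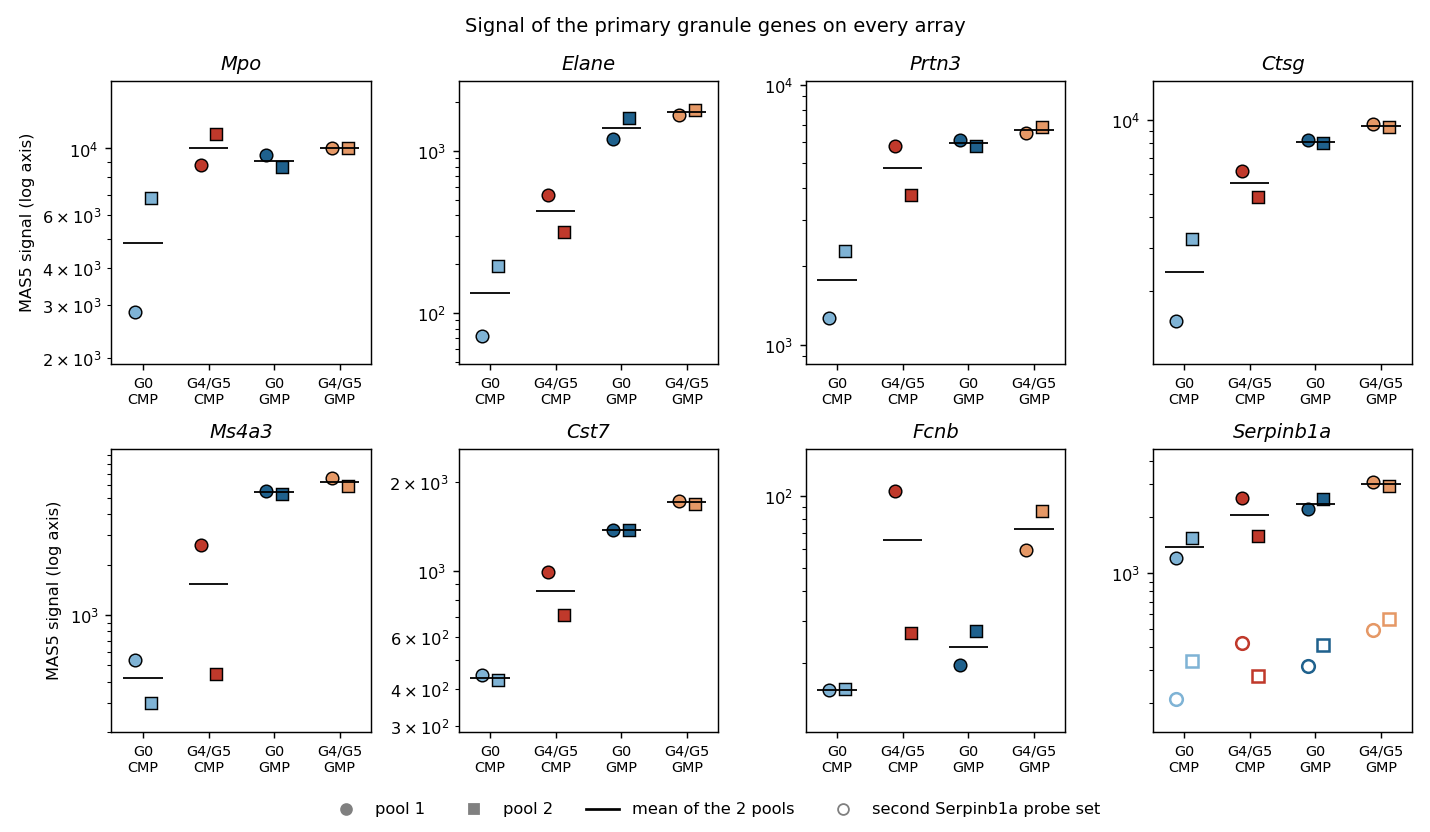
MAS5 signal (log axis, a separate scale per gene) of the 8 genes on each array, by group, with circles for pool 1, squares for pool 2 and bars for group means; open symbols are the second Serpinb1a probe set. G0 CMP has the lowest mean in every panel, from 15.6 (Fcnb) to 4833 (Mpo), and G4/G5 GMP the highest.

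The second question was whether the genotypes differed in CMP. Each of the 8 genes had a higher mean in G4/G5 CMP than in G0 CMP, and in 7 of the 8 the pools did not overlap. Of all tested genes, 21.7% were higher in G4/G5 CMP without overlap. The members' median difference was 1.32, beside 0.04 for all genes. Fcnb is 1 of the 7 without overlap but passed the signal filter through G4/G5 arrays alone. Without it the members' median was 1.29. None of the 8 passed: limma called 0% of the 8886 genes higher and 1 gene lower. At an unadjusted p under 0.05 there were 7 of the 8 members, Fcnb among them, and 1194 of all genes. The differences are therefore given as values.

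Among the proteases, the G4/G5 minus G0 difference in CMP was 1.70 for Elane (SE 0.40, adjusted p = 0.239), 1.45 for Prtn3 (SE 0.28, adjusted p = 0.207) and 1.29 for Ctsg (SE 0.30, adjusted p = 0.237). These correspond to 3.25-, 2.73- and 2.45-fold higher signals. Mpo differed by 1.17 (SE 0.33, adjusted p = 0.277), or 2.25-fold. None of these 4 differences passed once adjusted over all genes. Cst7 had the lowest adjusted p of the 8 (0.93, SE 0.16, adjusted p = 0.146), and Serpinb1a the smallest difference (0.55, SE 0.22, adjusted p = 0.346). The values were 1.41 for Ms4a3 (SE 0.66, adjusted p = 0.395) and 1.35 for Fcnb (SE 0.49, adjusted p = 0.321).

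Pools of the same number were matched by the study, so the difference was also taken within each pair. It was above 0 for all 8 genes in both CMP pairs. For the 7 without overlap this follows from the overlap count on the same arrays. The share of all genes above 0 in both pairs was not computed. In pair 1 the difference ran from 1.07 for Serpinb1a to 2.73 for Elane. In pair 2 it ran from 0.02 for Serpinb1a to 0.72 for Cst7, with Mpo also at 0.72. The first pair held both the lower G0 array of Mpo, Elane, Prtn3 and Ctsg and the G4/G5 array with the neutrophil signal. Within G4/G5 CMP, pool 1 was above pool 2 for 7 of the 8 genes, Mpo being the exception.

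Without G4/G5 CMP pool 1, the neutrophil list had a median CMP difference of 0.04, against 2.92 with it, and 10 of its 19 genes were higher. The list includes the genes named above that passed the signal filter through G4/G5 arrays alone. Of all tested genes, 55.6% were higher in G4/G5 CMP with pool 1 and 59.3% without it. The members' median was then 0.91, and pool 2 alone was above both G0 CMP pools for 7 of the 8 genes, against 41.8% of all tested genes. The value without pool 1 was 1.34 for Mpo, 1.33 for Elane, 1.14 for Prtn3 and 1.12 for Ctsg. It was 0.69 for Cst7 and 0.53 for Fcnb. For Ms4a3 and Serpinb1a it was 0.14 and 0.21, so most of their difference lay in pool 1. None of the 8 passed without pool 1. Monocyte genes were higher as well: all 12 tested were higher in G4/G5 CMP with a median of 1.08, and 10 of 12 with a median of 1.21 without pool 1. Among the 12, Adgre1 passed the signal filter through G4/G5 arrays alone. Of 9 erythroid and megakaryocyte genes, 5 were higher with pool 1 and 0 without it. Of 8 eosinophil, basophil and mast cell genes all 8 were higher, with a median of 0.94, or 0.37 without pool 1. The part of such cells in the members' differences was not tested. Of 10 stem and multipotent genes 8 were lower in G4/G5 CMP, with a median of -0.37, or -0.20 without pool 1.

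The other arrays also mattered. Without G4/G5 CMP pool 2, the members' median was 1.61. Fcnb, which had passed the signal filter through G4/G5 arrays alone, was then at 2.17. Without G0 CMP pool 2, 4 of the 8 were called (Mpo, Elane, Prtn3 and Ctsg) and 112 genes in all, while without G0 CMP pool 1 none of the 8 was called and the members' median was 0.99. In these fits the lone array is assumed to vary like the other groups. The direction stayed the same in each.

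**Figure D2:**
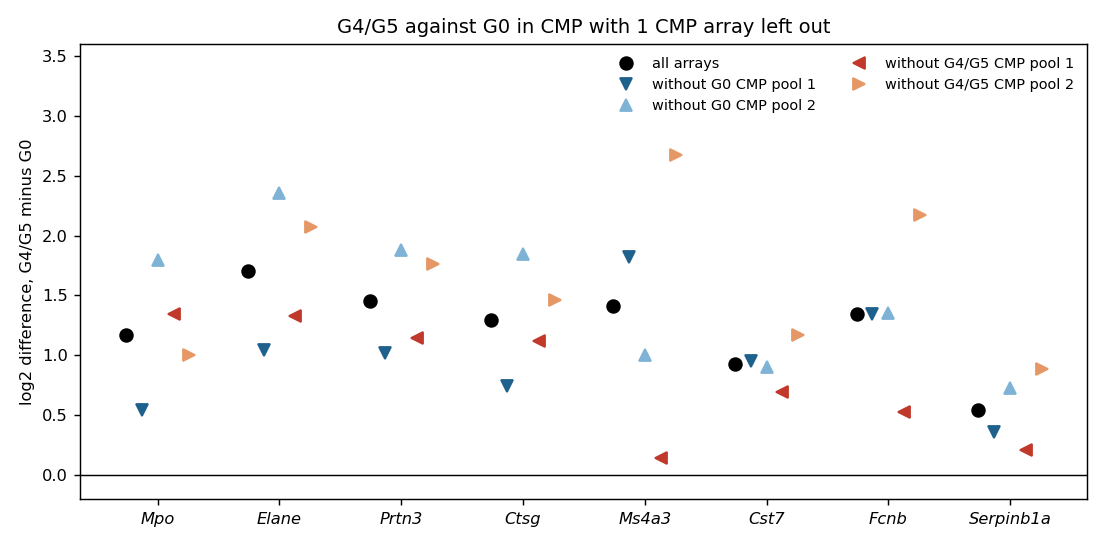
Log2 difference of G4/G5 against G0 in CMP for each gene with all arrays (black) and with 1 CMP array left out (coloured). All values are above 0; without G4/G5 CMP pool 1 (red), Ms4a3 is at 0.14 and Mpo is at 1.34.

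In GMP the genotype differences of 7 members were at most 0.36, and that of Fcnb was 1.30. All 8 had both G4/G5 pools above both G0 pools, where 28.8% of all tested genes did. Their median difference was 0.26, beside 0.01 for all genes. None passed: limma called 0% of genes higher, with 699 genes and 1 of the 8 members (Fcnb) at an unadjusted p under 0.05. The intervals rest on a spread shared with the CMP pools, which lay farther apart than the GMP pools. With only the GMP arrays in the limma fit, 7 of the 8 members, Fcnb among them, and 2067 of all genes were at an unadjusted p under 0.05. In the fit of all arrays the intervals still allow differences of some size. For Mpo the difference was 0.14, with a 95% interval from -0.61 to 0.90, and for Prtn3 it was 0.17, from -0.46 to 0.80. For Elane it was 0.33, from -0.58 to 1.24, and for Cst7 0.30, from -0.06 to 0.67. Ctsg and Ms4a3 were both at 0.21 and Serpinb1a at 0.36.

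Fcnb had the largest GMP difference of the 8 (1.30, SE 0.49, adjusted p = 0.603), or 2.47-fold, and it was present in both pairs (1.23 and 1.37). Fcnb had passed the signal filter through G4/G5 arrays alone, and without it the members' median GMP difference was 0.21. The 19 neutrophil genes were all higher in G4/G5 GMP, by a median of 2.99, with none of them called in the fit of all arrays. This count and median include the neutrophil genes that, like Fcnb, passed the signal filter through G4/G5 arrays alone. Both G4/G5 GMP arrays carried a higher sum of the neutrophil signal, as they did for Fcnb. The part of that signal in the Fcnb difference was not tested. Averaged over CMP and GMP, the members' differences ran from 0.45 for Serpinb1a to 1.32 for Fcnb. Their median was 0.78, or 0.75 without Fcnb. Again none of the 8 passed, and 0.0113% of all genes were called higher. At an unadjusted p under 0.05 there were 7 of the 8 members, Fcnb among them, and 1582 of all genes.

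**Figure D3:**
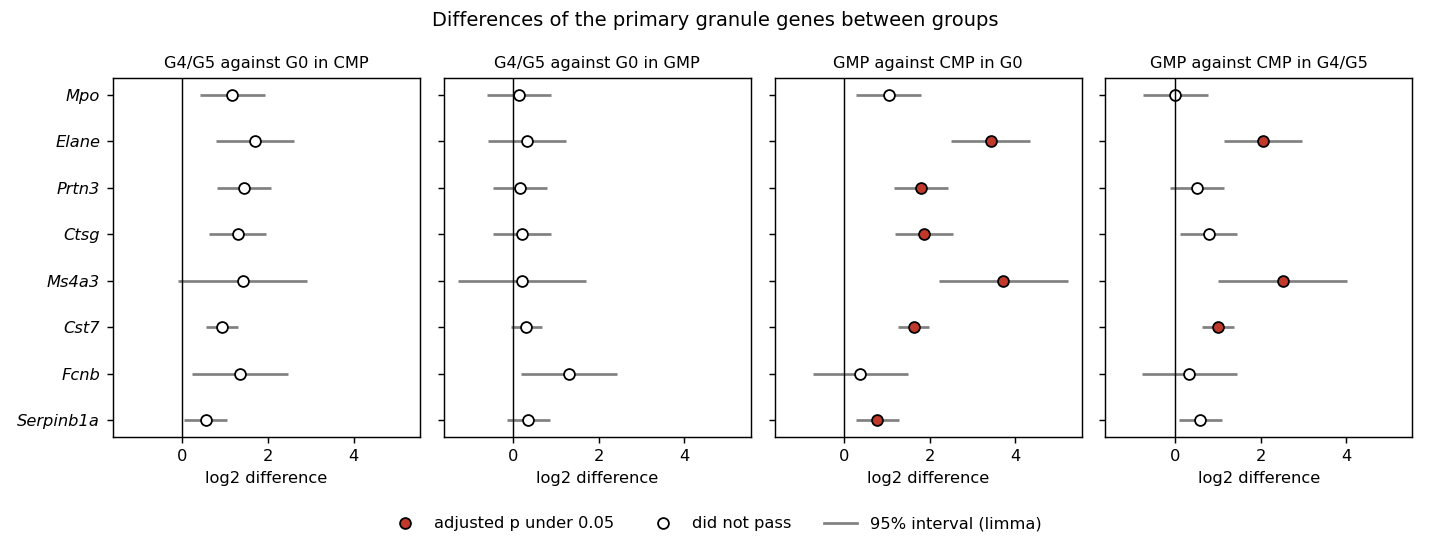
Log2 differences (points) with 95% intervals (bars) from limma for the 8 genes in 4 comparisons; filled points passed an adjusted p of 0.05. No gene passed between genotypes, 6 passed for GMP against CMP in G0 and 3 in G4/G5.

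The third question was whether the step from CMP to GMP differed between genotypes. In G4/G5, 3 of the 8 rose past the threshold (Cst7, Elane and Ms4a3), against 4.18% of all tested genes called higher, and the members' median step was 0.69 compared with 1.72 in G0. Without pool 1 of G4/G5 CMP the median G4/G5 step was 1.06, and without pool 2 it was 0.43. The number of members called ran from 0 to 4 with 1 array left out. It was 0 without either G4/G5 GMP array. The difference between the steps, which is the interaction, was below 0 for all 8, from -1.37 for Elane to -0.04 for Fcnb. The members' median was -1.05, beside -0.03 for all genes. For Serpinb1a the interaction was -0.19 with the brighter probe set and 0.18 with the dimmer one. Without pool 1 of G4/G5 CMP the median was -0.65, and Fcnb, Serpinb1a and Ms4a3 were above 0 (0.78, 0.15 and 0.064). None passed: 0% of genes were called in either direction, with adjusted p from 0.994 to 0.997 for the members. At an unadjusted p under 0.05 there were 4 of the 8 (Elane, Prtn3, Ctsg and Cst7) and 353 of all genes. Prtn3 had the interval farthest from 0 (-1.28, from -2.17 to -0.39). These comparisons share the CMP arrays with those between genotypes, so the lower step values in G4/G5 and the higher G4/G5 CMP values are the same measurements seen from opposite sides.

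Pools of CMP differed more than pools of GMP. The median absolute difference between pools over the members in CMP was 0.84 for G0 and 0.65 for G4/G5, against 0.25 and 0.27 for all genes. In GMP it was 0.10 and 0.08, against 0.15 and 0.13 for all genes. The members' median lay below that of all genes in GMP and above it in CMP. Stem and lineage markers also differed between the G0 CMP pools: Flt3 read 386 and 814, Irf8 248 and 662, and Klf1, an erythroid factor, 349 and 163. Mpo, Elane, Prtn3, Ctsg and Serpinb1a were higher in pool 2, where Irf8 was higher and Klf1 lower. The part of cell composition in this spread was not tested.

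Over the 8 arrays, Elane, Prtn3, Ctsg, Cst7 and Serpinb1a followed the mean of the other members closely, with Pearson r from 0.962 to 0.973. The values were 0.871 for Ms4a3, 0.721 for Mpo and 0.613 for Fcnb. Arrays share cell type and genotype, so these values are descriptive. The 8 other genes most like the members' mean, by Pearson r over the 8 arrays, were Igsf6, Acaa2, Cdk2ap2, Gpr160, Ssr4, Ufsp2, Ccr2 and Ppib, with r from 0.990 to 0.995. Igsf6, a myeloid immunoglobulin-like receptor, had the highest r. Its signal was 11.5 and 58.4 in CMP of G0 mice and 399 and 91.9 in CMP of G4/G5 mice. GMP pools gave 602 and 660 for G0 and 934 and 1037 for G4/G5.

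Genes that serve or accompany the granule proteins were described as lists. For comparison, of all 8886 tested genes 10.6% were called higher and 10.2% lower from CMP to GMP in G0, with a median of -0.02. In the G4/G5 step 4.18% were called higher and 6.29% lower, with a median of -0.04, and between genotypes in CMP the median of all genes was 0.04. Of all tested genes, 55.6% were higher in G4/G5 CMP, or 59.3% without its pool 1, and 50.9% were higher in G4/G5 GMP. Of 11 other promyelocyte and azurophil granule genes, all 11 were higher in G0 GMP than in G0 CMP and 7 passed (10.6% of all genes were called higher), with a median of 0.80. Nkg7, a granule membrane protein, rose by 1.06 (adjusted p = 0.00489), and Hexa, a lysosomal hexosaminidase subunit, by 1.06 (adjusted p = 0.00683). Ctsc, the activator of the granule proteases, rose by 0.63 (adjusted p = 0.0376), from 473 and 424 to 770 and 635. Srgn, serglycin, was at 5644 and 6570 in CMP and 7060 and 6759 in GMP (0.18, adjusted p = 0.269). Between genotypes in CMP, 10 of the 11 were higher with a median of 0.73 and none passed; without pool 1 of G4/G5 the median was 0.39, again with 10 higher. Ctsc was the exception at -0.01 (adjusted p = 0.982).

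**Figure D4:**
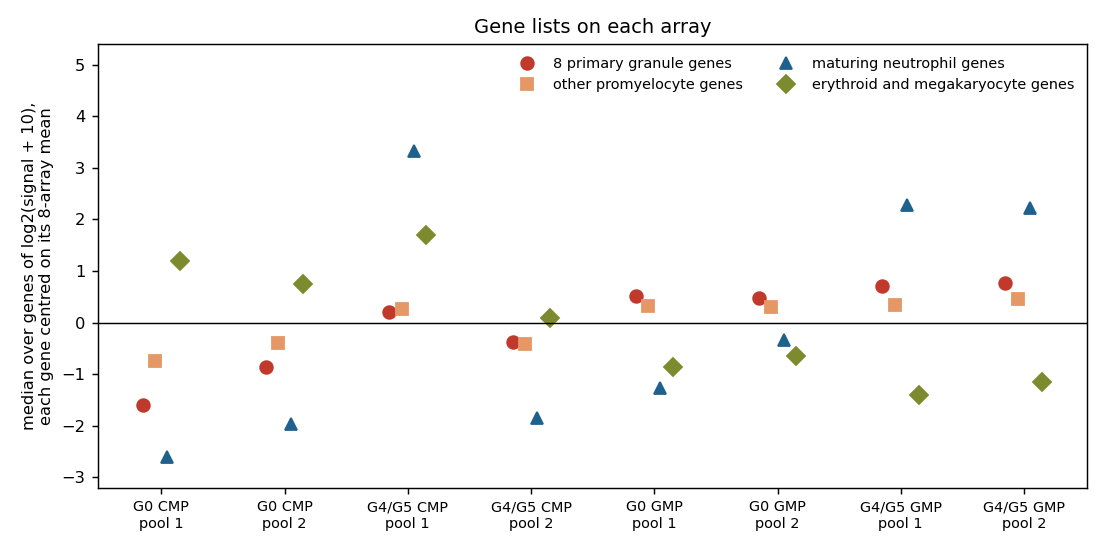
Median over genes of log2(signal + 10), each gene centred on its mean over the 8 arrays, for the 8 members and 3 lists on each array. The members run from -1.61 in G0 CMP pool 1 to 0.77 in G4/G5 GMP pool 2, while the neutrophil list stands at 3.33 on G4/G5 CMP pool 1 and at -1.86 on pool 2.

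Chaperones and sorting factors move secretory proteins from the endoplasmic reticulum to granules. Of 17 tested, 14 were higher in G0 GMP and 7 rose, against 10.6% of all genes, with a median of 0.56. Pdia4, a disulfide isomerase, rose by 1.66 (adjusted p = 0.000810), from 198 and 175 to 631 and 591. Hspa5, the main endoplasmic reticulum chaperone, rose by 0.98 (adjusted p = 0.00837). In G4/G5, 15 of the 17 were higher in GMP and 4 rose, against 4.18% of all genes. They were Pdia4, Lyst, Hsp90b1 and Canx, the last named after its values were seen. Between genotypes in CMP the list had a median of 0.13, with 10 of 17 higher and none passing, and of 0.07 with 9 higher without pool 1. Pdia4 read 168 and 161 in G4/G5 CMP, below both G0 CMP pools.

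Of 12 transcription regulators of the granule genes, 3 rose and 2 fell from CMP to GMP in G0, where 10.6% of all genes rose and 10.2% fell. Gfi1, a repressor needed for neutrophil development, rose by 2.03 (adjusted p = 0.00321), from 139 and 267 to 795 and 845. Cebpb rose by 2.08 (adjusted p = 0.00302) and Cebpd by 2.01 (adjusted p = 0.00853). Runx1 fell by 0.89 (adjusted p = 0.0204), and Cux1, named after its values were seen, fell by 0.85 (adjusted p = 0.0344). Cebpa, which drives entry into the granulocyte lineage, read 69.8 and 182 in G0 CMP and 275 and 259 in G0 GMP (1.16, adjusted p = 0.0767). Spi1, which encodes PU.1, was 66.6 and 137 in CMP and 124 and 160 in GMP (0.51, adjusted p = 0.319), and Myb differed by -0.14 (adjusted p = 0.548).

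Between genotypes in CMP none of the 12 regulators passed, and 7 were higher with a median of 0.39 (10 higher and 0.38 without pool 1). Cebpa read 153 and 308 in G4/G5 CMP, overlapping G0 CMP, and differed by 0.88 (adjusted p = 0.394). Cebpd differed by 1.58 (adjusted p = 0.234), and Gfi1 by 0.59 (adjusted p = 0.366). Gfi1 in G4/G5 CMP was 301 and 289, well below the GMP arrays, and it rose from CMP to GMP in G4/G5 as well (1.94, adjusted p = 0.00423). Cebpb rose too in that step (1.26, adjusted p = 0.0208), and Runx1 fell (adjusted p = 0.0309).

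Of 9 protease inhibitors other than the members, 7 were higher in G4/G5 CMP and all 9 in G4/G5 GMP, with medians of 0.69 and 0.59 and none passing. Stfa3 and Stfa2l1, counted as higher in both, passed the signal filter through G4/G5 arrays alone, so their selection already favours this direction. The CMP values rest in part on pool 1 of G4/G5: without it 5 of the 9 were higher, with a median of 0.15. Slpi, a secreted inhibitor of elastase and cathepsin G, read 94.8 and 169 in CMP of G0 mice and 594 and 341 in CMP of G4/G5 mice. In GMP it was 331 and 457 for G0 and 590 and 673 for G4/G5. Its groups did not overlap between genotypes in either cell type, with a CMP difference of 1.75 (adjusted p = 0.179). From CMP to GMP in G0, Slpi rose by 1.54 (adjusted p = 0.0143) and Cst3, named after its values were seen, rose by 0.56 (adjusted p = 0.0382). Serpinb9 fell by 1.43 (adjusted p = 0.00419) and Serpinb6b fell by 0.85 (adjusted p = 0.0281). In the G4/G5 step only Serpinb9 passed, and it fell (adjusted p = 0.0405).

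Of 35 paralogs of the members, 11 passed the signal filter. In the G0 step 3 rose and 1 fell, with a median of 0.56, against 10.6% and 10.2% of all genes. Epx, eosinophil peroxidase and the relative of Mpo, rose by 3.66 (adjusted p = 0.00949), from 19.9 and 4.49 to 200.4 and 318. Mcpt8, a basophil protease related to cathepsin G, rose by 1.84 (adjusted p = 0.00187). The others were Cst3 and Serpinb6b, given above. In CMP between genotypes 10 of the 11 were higher, with a median of 0.74 and none passing. Without pool 1 of G4/G5, 8 were higher, with a median of 0.62. Ms4a4b reached the signal filter on the G4/G5 CMP arrays alone, so its selection already favours a higher value there.

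Genes beside the protease loci were read to see whether the step was shared along the chromosome. Around Prtn3 and Elane, Ptbp1, an RNA-binding splicing regulator, rose by 0.86 in G0 (adjusted p = 0.00872), from 684 and 757 in CMP to 1378 and 1246 in GMP. The other tested neighbours, Palm, Plppr3, Med16 and R3hdm4, did not pass in any of the 6 comparisons. Plppr3, next to Prtn3 on its upstream side, differed by 0.33 in the G0 step (adjusted p = 0.427), and Med16, the nearest tested gene beyond Elane, by 0.02 (adjusted p = 0.950). Around Ctsg, Mcpt8 rose in G0, as given above, and in G4/G5 by 0.77 (adjusted p = 0.0407). The other neighbours, Mcpt2, Mcpt4, Gzme, Gzmd, Gzmg and Gzmn, stayed below the signal filter on every array.

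**Figure D5:**
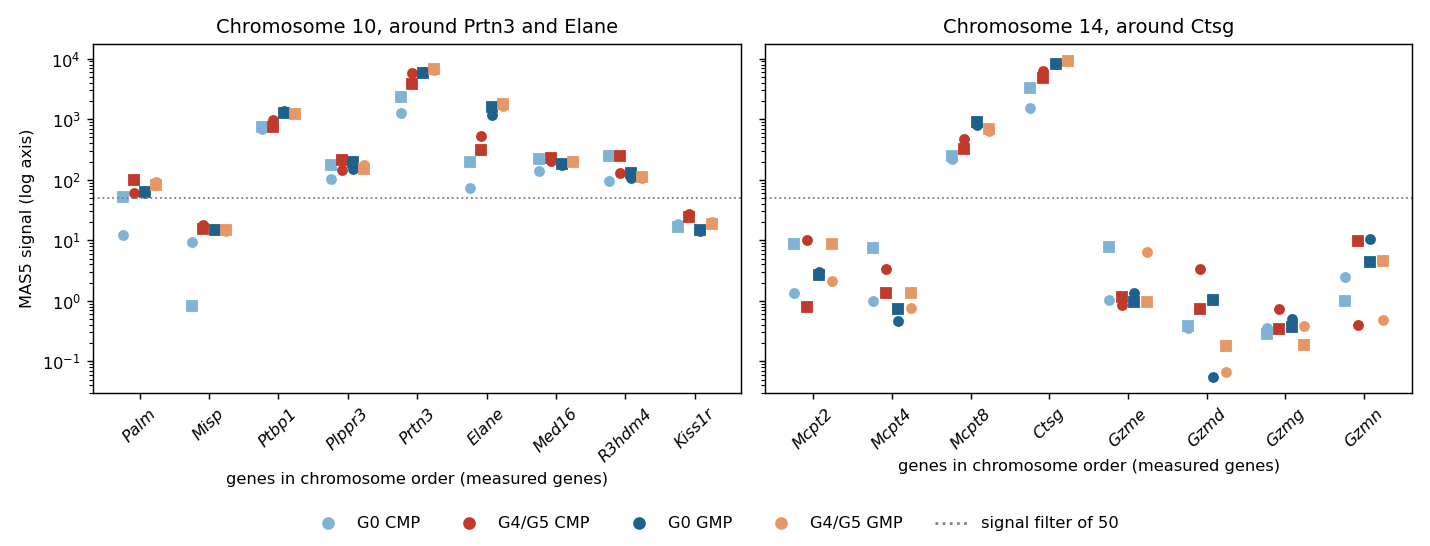
MAS5 signal (log axis) of the measured genes around Prtn3 and Elane (left) and around Ctsg (right) in chromosome order, coloured by group, with circles for pool 1, squares for pool 2 and a dotted line at the signal filter of 50. Med16 stays between 140 and 225 on all arrays beside Elane, and Mcpt8 and Ctsg alone exceed the filter at the Ctsg locus.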

How the data were processed

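The deposited values were linear intensities, made by the authors with MAS5 per the submitters' processing notes and scaled to a target of 100 per the series text; probe-level data and detection calls were not used here. Median signals were 14.3 to 18.5, and 31.6% to 35.2% of probe sets reached 50. The number of arrays limits the precision.

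No normalization was added before taking log2(signal + 10). The probe set with the highest mean stood for a gene, and genes at 50 or more on 2 arrays were tested. limma 3.58.1 (R 4.3.3) fitted 4 group means to 8 arrays, leaving 4 residual degrees of freedom, with an intensity trend and Benjamini-Hochberg adjustment over 8886 genes at a threshold of 0.05. The fit was tested on simulated data. Folds on this scale understate changes of low signals.

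The members and lists were chosen with earlier results of these data known. The series text pairs pools by number. Across 8886 genes, same-numbered deviations of the genotypes correlated with r = 0.247 in CMP and 0.139 in GMP, and the pool block was an alternative. Lists named up to 3 genes with the lowest adjusted p per comparison, and known regulators or activators. The sources used here do not say whether CMP and GMP pools shared mice, and the fit treats arrays as independent.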

Additional observations from a re-analysis of the deposited data

How the results depend on the processing

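Under the 21 alternative settings the members' direction held in both genotype comparisons. The number of arrays and the spread of the CMP pools limit these results, and leaving out 1 array changed many calls. The groups share 1 estimate of spread, so leaving out a CMP array can change calls in GMP too. The members' median GMP difference stayed at 0.26 when a G4/G5 CMP array was left out, which the design fixes because no CMP array enters that difference. The cause of the spread was not tested. Genes called in CMP (1) were 5 with every probe set, 5 with median centring, 3 without the trend, 0 with only the arrays compared, 3 with a pseudocount of 50, 8 with quantile normalization, 3 with the pool as a block shared by CMP and GMP and 2 with the block within cell type, and 0 to 425 with 1 array left out. In GMP (0) they were 360 with only the arrays compared, with 1 member among them (Fcnb, adjusted p = 0.0190, which had passed the signal filter through G4/G5 arrays alone), and 0 to 55 with 1 array left out. For the mean (3) they were 7 with every probe set, 8 with the mean of probe sets, 6 with median centring, 1 without a filter, 1 with the block within cell type, and 0 to 668 with 1 array left out. The G0 step (1845) gave 2844 with every probe set and 67 to 2551 with 1 array left out. The G4/G5 step (930) gave 492 without a filter, 428 with only the arrays compared, and 65 to 1433 with 1 array left out. The interaction (0) gave 0 to 11.

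With 1 array left out, members called were 0 to 6 in CMP, 0 to 6 for the mean, 2 to 7 for the G0 step and 0 to 4 for the G4/G5 step. The members' median ran from 1.34 to 1.95 for the G0 step, from 0.43 to 1.06 for the G4/G5 step and from -1.21 to -0.59 for the interaction. The signs that turned were all of values that did not pass. The Fcnb interaction was 0.0037 with a pseudocount of 50. With 1 array left out it ran from -0.87 to 0.78, that of Ms4a3 from -2.47 to 0.064 and that of Serpinb1a from -0.53 to 0.15, and the G4/G5 step ran from -0.49 to 1.16 for Fcnb and from -0.16 to 0.18 for Mpo. The pool block, shared by both cell types, added Mpo to the members called in the G0 step and changed no other call of a member.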
